A study of Homo sapiens with 8 samples.

Results

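The 15q21 block is a stretch of neighboring genes on the long arm of chromosome 15, and its 38 members are a fixed list of named genes from CEP152 to PIGB, out of 18417 genes measured. One transcript cluster, the array's unit of measurement for a transcript, stands for each gene, the one with the highest mean over the 8 arrays. All 38 members were measured, and in assembly GRCh38.p14 they span 6.63 Mb. The list was drawn up because many of these genes were lower in the shEI24 clones than in cells with the control shRNA, so that difference is given below as a description of the members and supports nothing by itself. One measured gene inside the span, FAM227B, was not on the list and is given beside the members.

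Total RNA was measured in ZR-75-1, a breast cancer line of the luminal, estrogen receptor-positive kind, on 8 Affymetrix arrays. Parental ZR-75-1 cells, cells with an shRNA against GFP (shGFP, the control) and ZR-shEI24 clones 1 and 2, which carry an shRNA against EI24, had 2 arrays each. The sample labels name no drug for any line. For the knockdown lines the study's methods refer to earlier work and name no selection drug. Each ZR-shEI24 line is a single clone, the sources used here do not say whether the shGFP cells were a clone or a pool, and no source ties the 2 arrays of a line to separate dishes of cells. The errors and p-values therefore measure only the spread between these arrays. EI24 mRNA itself lay between 8.43 and 9.25 (log2 intensity) on the shEI24 arrays and between 11.91 and 12.09 on the control arrays. Markers of luminal and mesenchymal cells also differed on all 4 shEI24 arrays. Of 12 measured luminal epithelial markers, all 12 were lower on every shEI24 array than on every control array. Their mean log2 intensities were 8.73 to 9.08 against 11.96 to 12.05. In the clones ESR1 and CDH1, which code for the estrogen receptor and E-cadherin, lay in the dimmest 25% of genes. The other luminal markers did not, and ranked from the 34.3th percentile of all genes (TFF1) to the 98.4th (KRT8) in the clones. Of 10 mesenchymal markers, all 10 were higher on every shEI24 array, with means of 11.16 to 11.42 against 6.65 to 7.13. These shifts move with every difference between the clones and the controls described below, and their part in those differences was not tested. Total RNA cannot tell fewer cells of one kind from less RNA per cell.

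Genes that lie next to each other on a chromosome can share chromatin domains, copy number and, where their starts lie back to back, one stretch of promoter DNA, while most of them code for proteins of unrelated function. The members of the 15q21 block are of this mixed kind. They include motors and adaptors of vesicle traffic (MYO5A, MYO5C, RAB27A, AP4E1), an ion channel with a kinase domain (TRPM7), subunits of nuclear complexes (LEO1, COPS2, GABPB1), enzymes of lipid and sugar metabolism (SLC27A2, GALK2, PIGB), and aromatase (CYP19A1), which makes estrogens from androgens.

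RefSeq promoter entries of GRCh38.p14 were found for 35 of the 38 members (not for EID1, GLDN and BCL2L10). There were 4 pairs of neighbors inside the block with starts on opposite strands within 1000 bases. The DNA between their starts is shown because each pair sets the values of both genes against 1 shared start region. It is written 5′ to 3′ on the plus strand, with the gene on the minus strand named first. For RAB27A, which has several annotated starts, the outermost is used. Capitals mark, on either strand, the letters CCGGAAG (an ETS motif, the kind bound by the GABP factor), GGGCGG (the motif of Sp factors), CCAAT (the motif of the NF-Y factor) and CACCTG (an E-box of the kind bound by ZEB factors). The letters TATAAA, where TBP binds, were searched as well. No 2 of these motifs overlapped in the stretches shown.
COPS2/GALK2, chr15:49155600-49155773, plus strand, 174 bases: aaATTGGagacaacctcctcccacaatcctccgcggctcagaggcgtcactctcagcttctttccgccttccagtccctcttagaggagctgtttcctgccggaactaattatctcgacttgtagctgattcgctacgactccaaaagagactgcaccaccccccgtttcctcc
FAM227B/DTWD1, chr15:49620819-49621047, plus strand, 229 bases: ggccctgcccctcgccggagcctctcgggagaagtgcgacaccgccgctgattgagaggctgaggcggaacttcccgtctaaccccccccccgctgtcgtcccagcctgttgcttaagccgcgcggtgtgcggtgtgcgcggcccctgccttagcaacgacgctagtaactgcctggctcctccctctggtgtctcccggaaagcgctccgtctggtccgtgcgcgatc
LYSMD2/TMOD2, chr15:51751452-51751596, plus strand, 145 bases: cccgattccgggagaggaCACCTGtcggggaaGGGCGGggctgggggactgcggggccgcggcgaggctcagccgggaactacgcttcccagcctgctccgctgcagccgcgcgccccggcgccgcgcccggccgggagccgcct
RAB27A/PIGB, chr15:55319124-55319221, plus strand, 98 bases: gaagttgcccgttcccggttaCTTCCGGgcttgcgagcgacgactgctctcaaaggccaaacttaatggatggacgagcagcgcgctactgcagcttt

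The 250 bases before the start are shown for SLC27A2, MYO5C and LEO1, which are among the 4 members with the largest difference, with the same capitals and on each gene's own strand.
SLC27A2, chr15:50181946-50182195, plus strand, 250 bases: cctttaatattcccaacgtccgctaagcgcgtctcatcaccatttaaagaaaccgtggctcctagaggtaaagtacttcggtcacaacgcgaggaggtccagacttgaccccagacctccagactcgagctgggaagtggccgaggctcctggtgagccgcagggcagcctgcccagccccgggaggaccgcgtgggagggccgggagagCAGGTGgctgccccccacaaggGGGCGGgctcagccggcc
MYO5C, chr15:52295805-52296054, minus strand, 250 bases: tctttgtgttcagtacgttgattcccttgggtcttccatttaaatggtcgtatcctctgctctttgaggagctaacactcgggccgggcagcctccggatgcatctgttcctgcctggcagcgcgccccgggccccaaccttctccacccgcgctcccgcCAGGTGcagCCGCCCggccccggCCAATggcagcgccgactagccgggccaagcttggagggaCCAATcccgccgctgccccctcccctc
LEO1, chr15:51971779-51972028, minus strand, 250 bases: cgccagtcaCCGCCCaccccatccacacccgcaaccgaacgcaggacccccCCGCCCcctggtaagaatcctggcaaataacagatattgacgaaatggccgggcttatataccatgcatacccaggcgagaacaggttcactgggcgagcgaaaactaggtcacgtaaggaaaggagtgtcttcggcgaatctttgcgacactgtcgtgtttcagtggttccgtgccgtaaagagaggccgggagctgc

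Of the 38 members, 23 were lower and 4 higher in the shEI24 clones than in shGFP at an adjusted p under 0.05 from limma, and 11 were not called. Over all 18417 genes 29% were called lower and 26.8% higher, and since the members were picked on this contrast nothing is read from the excess. The same 23 members were lower on all 4 shEI24 arrays than on all 4 control arrays (26.9% of all genes), and 15 were at least 2-fold lower (9.08% of all genes). The median difference of the members was -0.53 on the log2 scale, against 0.08 over all genes. Each array's median over the members, relative to the mean of the 4 control arrays, was -0.44 to -0.57 on the shEI24 arrays and -0.04 to 0.04 on the control arrays.

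**Figure D1:**
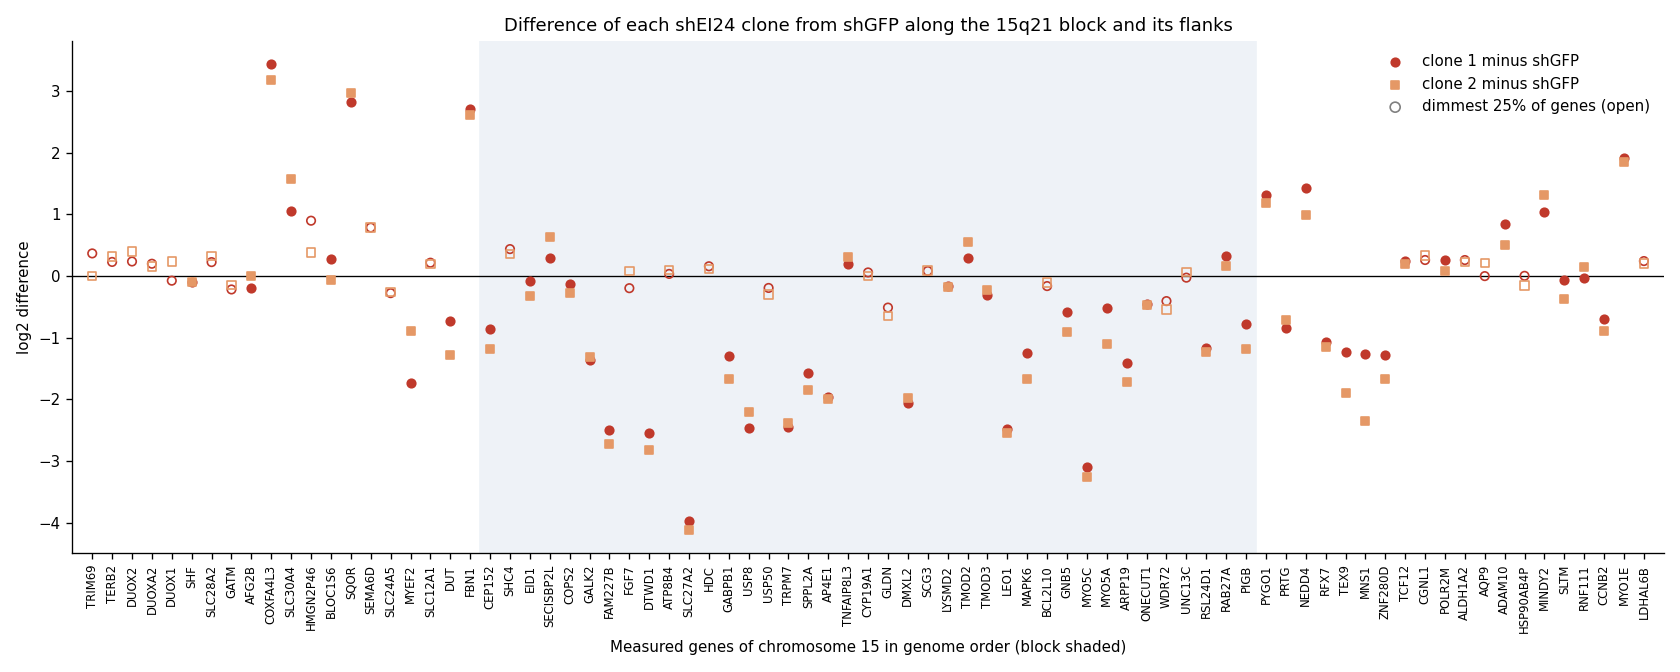
Difference of clone 1 (circles) and clone 2 (squares) from the mean of the 2 shGFP arrays, in log2 units, for the members of the 15q21 block and FAM227B (shaded) and the 20 measured genes on each side, in genome order; open symbols are genes in the dimmest 25%. The 15 members at least 2-fold lower lie between CEP152 and RSL24D1, the gene with the largest fall is SLC27A2 at -4.04 for the mean of the clones, and FBN1 and NEDD4 next to the block lie above 0.

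The largest difference was that of SLC27A2, which codes for a very long-chain acyl-CoA synthetase of peroxisomes and the endoplasmic reticulum. SLC27A2 read 9.83 and 9.70 in the shGFP arrays, 9.72 and 9.79 in the parental arrays, 5.83 and 5.77 in clone 1 and 5.76 and 5.54 in clone 2. All 4 shEI24 arrays lay far below the 4 control arrays, and the clones' mean was -4.04 (SE 0.09) from shGFP. This is at least a 16.5-fold difference, because the clones' level ranked at the 12.6th percentile of all genes, where intensities hold mostly background.

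MYO5C, a class V myosin that moves secretory granules in glandular epithelia, read 11.26 and 11.30 in the shGFP arrays, 11.24 and 11.23 in the parental arrays, 8.39 and 7.97 in clone 1 and 8.13 and 7.93 in clone 2. Its clones' mean lay 9.04-fold below shGFP, a log2 difference of -3.18 (SE 0.12), and the shGFP and parental arrays were nearly equal. The related motor MYO5A, which carries melanosomes and other organelles, read 9.84 and 9.75 in the shGFP arrays, 10.11 and 10.08 in the parental arrays, 9.34 and 9.21 in clone 1 and 8.71 and 8.68 in clone 2. Its difference was smaller, at -0.81 (SE 0.08), and clone 1 lay above clone 2 on both arrays. The call against shGFP was lost with the t-test that the study's methods name (below, the methods' t-test), at an adjusted p of 0.0774. RAB27A, the small GTPase that recruits such motors to vesicles, read 8.67 and 8.48 in the shGFP arrays, 8.84 and 8.85 in the parental arrays, 8.93 and 8.88 in clone 1 and 8.77 and 8.70 in clone 2. It was higher than shGFP by 0.25 (SE 0.08) but lay at -0.026 from the parental arrays, and its shEI24 arrays overlapped the control arrays. Of the 3 genes of this transport route that lie in the block, MYO5C and MYO5A were thus lower by unlike amounts, and RAB27A was not lower than shGFP.

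Of the genes for endosomes, lysosomes and the Golgi, USP8, a deubiquitinase that acts on receptors at endosomes, read 11.67 and 11.78 in the shGFP arrays, 11.38 and 11.50 in the parental arrays, 9.53 and 9.01 in clone 1 and 9.61 and 9.43 in clone 2, 5.03-fold lower in the clones (log2 difference -2.33, SE 0.14). AP4E1, the large epsilon subunit of the AP-4 adaptor of the trans-Golgi network, read 9.93 and 9.93 in the shGFP arrays, 10.01 and 10.04 in the parental arrays, 8.01 and 7.93 in clone 1 and 8.09 and 7.79 in clone 2, a log2 difference of -1.98 (SE 0.09). SPPL2A, an intramembrane protease of lysosomes, read 12.67 and 12.66 in the shGFP arrays, 12.55 and 12.63 in the parental arrays, 11.19 and 10.99 in clone 1 and 10.71 and 10.91 in clone 2, with a difference of -1.71 (SE 0.09). Within these genes no shEI24 array reached a control array, and the shGFP and parental arrays lay close together. DMXL2, a rabconnectin that helps assemble the vacuolar proton pump, read 11.43 and 11.45 in the shGFP arrays, 11.19 and 11.24 in the parental arrays, 9.46 and 9.33 in clone 1 and 9.59 and 9.34 in clone 2, 4.04-fold lower (log2 difference -2.01, SE 0.09). TRPM7, a magnesium and zinc channel fused to a kinase, read 11.90 and 11.89 in the shGFP arrays, 11.64 and 11.74 in the parental arrays, 9.63 and 9.28 in clone 1 and 9.55 and 9.49 in clone 2, 5.31-fold lower (log2 difference -2.41, SE 0.10). For both, the spread within a line was small beside the gap between clones and controls.

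Among nuclear and signalling proteins, LEO1, a subunit of the PAF1 complex that travels with elongating RNA polymerase, read 11.12 and 11.12 in the shGFP arrays, 10.93 and 10.99 in the parental arrays, 8.75 and 8.53 in clone 1 and 8.76 and 8.41 in clone 2. The clones lay 5.7-fold below shGFP (log2 difference -2.51, SE 0.11). GABPB1, the beta subunit of the ETS-family factor GABP, read 10.71 and 10.64 in the shGFP arrays, 10.88 and 10.93 in the parental arrays, 9.55 and 9.22 in clone 1 and 9.14 and 8.87 in clone 2, with a difference of -1.48 (SE 0.11). It was 2.79-fold lower in the clones, and no array of the clones reached a control array. MAPK6, which codes for the atypical kinase ERK3, read 11.63 and 11.63 in the shGFP arrays, 11.49 and 11.49 in the parental arrays, 10.50 and 10.27 in clone 1 and 10.14 and 9.80 in clone 2, a difference of -1.46 (SE 0.11). ARPP19, which inhibits the phosphatase PP2A-B55 at entry into mitosis, read 11.998 and 11.94 in the shGFP arrays, 11.92 and 11.94 in the parental arrays, 10.56 and 10.54 in clone 1 and 10.31 and 10.19 in clone 2, a difference of -1.57 (SE 0.08). In MAPK6 and ARPP19 clone 2 was the lower of the clones on both arrays. DTWD1, an enzyme that modifies uridine in tRNA, read 9.70 and 9.63 in the shGFP arrays, 9.08 and 8.88 in the parental arrays, 7.48 and 6.75 in clone 1 and 7.02 and 6.66 in clone 2. It was 6.44-fold lower in the clones (log2 difference -2.69, SE 0.19), with the widest spread within clones among the members shown here, and its parental arrays lay below its shGFP arrays.

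A further group of members was lower by less. GALK2, an N-acetylgalactosamine kinase, read 9.94 and 9.96 in the shGFP arrays, 9.55 and 9.42 in the parental arrays, 8.67 and 8.52 in clone 1 and 8.72 and 8.56 in clone 2, a difference of -1.33 (SE 0.09). RSL24D1, a factor in the assembly of the large ribosomal subunit, read 10.08 and 10.05 in the shGFP arrays, 9.50 and 9.50 in the parental arrays, 9.03 and 8.77 in clone 1 and 8.86 and 8.80 in clone 2, a difference of -1.20 (SE 0.09). In both genes the clones lay below every control array, and the parental arrays lay between the clones and shGFP. CEP152, a scaffold protein of centriole duplication at the start of the block, read 8.19 and 8.12 in the shGFP arrays, 8.28 and 7.93 in the parental arrays, 7.48 and 7.10 in clone 1 and 7.12 and 6.83 in clone 2, a difference of -1.02 (SE 0.14). PIGB, a mannosyltransferase of GPI anchor synthesis at its end, read 10.51 and 10.46 in the shGFP arrays, 10.36 and 10.25 in the parental arrays, 9.91 and 9.49 in clone 1 and 9.35 and 9.25 in clone 2, a difference of -0.98 (SE 0.12). GNB5, the G protein beta subunit that pairs with R7 RGS proteins, read 9.24 and 9.18 in the shGFP arrays, 9.36 and 9.36 in the parental arrays, 8.64 and 8.62 in clone 1 and 8.34 and 8.26 in clone 2, a difference of -0.75 (SE 0.07). For these 3 genes too the clones and controls did not overlap. The other members called lower were GLDN (-0.58) and WDR72 (-0.48), both in the dimmest 25% of genes, and ONECUT1 (-0.46), TMOD3 (-0.27) and EID1 (-0.20), a nuclear inhibitor of differentiation that read 10.03 and 10.07 in the shGFP arrays, 10.18 and 10.23 in the parental arrays, 10.03 and 9.91 in clone 1 and 9.71 and 9.76 in clone 2. The EID1 call was the least secure of all, since it was lost in 11 of the alternative analyses. The ONECUT1 call was lost without shGFP replicate 2 (-0.39). The TMOD3 call, the call of a protein that caps actin filaments, changed in 5 of the alternative analyses. It was lost without either shGFP replicate, without clone 2 replicate 2 (-0.24 to -0.28) and with the methods' t-test, among others.

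Apart from RAB27A, 3 members were higher in the clones than in shGFP. SECISBP2L, related to a protein that reads selenocysteine signals in mRNA, read 9.31 and 9.14 in the shGFP arrays, 9.47 and 9.45 in the parental arrays, 9.51 and 9.54 in clone 1 and 9.92 and 9.79 in clone 2, a difference of 0.46 (SE 0.08) whose call was lost with the methods' t-test, at an adjusted p of 0.0934. SHC4, an adaptor of receptor tyrosine kinases, read 5.87 and 5.71 in the shGFP arrays, 5.88 and 6.02 in the parental arrays, 6.34 and 6.12 in clone 1 and 6.19 and 6.11 in clone 2, a difference of 0.40 (SE 0.10). In these 2 genes every shEI24 array lay above every control array (23.8% of all genes), although SHC4 lay in the dimmest 25% of genes and its call was lost against parental cells (0.24) and without shGFP replicate 2 (0.32). TMOD2, a tropomodulin that caps actin filaments, read 8.91 and 8.76 in the shGFP arrays, 9.37 and 9.28 in the parental arrays, 9.32 and 8.93 in clone 1 and 9.50 and 9.26 in clone 2. Its difference from shGFP was 0.42 (SE 0.12), but it was -0.071 from the parental arrays, which overlapped the clones, and the call was lost without shGFP replicate 2 (0.34). RAB27A also lost its call without shGFP replicate 2 (0.15) or without the first array of either clone (0.23 and 0.24). The results of TMOD2 and RAB27A changed in 4 and 7 of the alternative analyses. Both lost their calls with the methods' t-test, which called only 1 member higher.

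Of the 11 members that were not called, 8 lay in the dimmest 25% of genes, where a fall could hardly be seen. They include CYP19A1, at 4.66 to 5.34 over the 8 arrays, FGF7, an epithelial growth factor, at 4.43 to 4.91, HDC, which makes histamine, at 5.92 to 6.41, and the vesicle proteins SCG3 (3.81 to 4.24) and UNC13C (4.93 to 5.29). ATP8B4, USP50 and BCL2L10 were the other dim ones, at 4.97 to 5.49, 4.75 to 5.26 and 6.16 to 6.63. Among the brighter uncalled members, COPS2, a subunit of the COP9 signalosome, read 11.91 and 11.97 in the shGFP arrays, 11.58 and 11.68 in the parental arrays, 11.91 and 11.73 in clone 1 and 11.72 and 11.62 in clone 2, and its clones lay at -0.20 from shGFP but within or above the range of the parental arrays. LYSMD2 read 8.44 and 8.49 in the shGFP arrays, 8.83 and 8.64 in the parental arrays, 8.08 and 8.55 in clone 1 and 8.39 and 8.18 in clone 2, a difference of -0.17, with the clones' arrays on both sides of the shGFP values. TNFAIP8L3, the third, was at 6.74 to 7.22 with a difference of 0.25.

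Members with a higher level in shGFP had the larger differences. Over the 38 members the Spearman correlation of the mean intensity in shGFP with the difference was -0.66, given as a description, since the shGFP arrays enter both measures and intensity also depends on each cluster's probes. Of the 24 members above the median level of all genes (mean over all arrays), 19 were lower and 3 higher, 13 of them at least 2-fold lower, with a median of -1.27, and 19 had all shEI24 arrays below all control arrays. Among all 9209 genes above that level 44% were lower, 29.7% higher and 13.3% at least 2-fold lower, 41.3% had the shEI24 arrays below the controls, and the median was -0.13. Of the 11 members in the dimmest 25% 2 were lower, 1 was higher and 8 were not called.

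**Figure D2:**
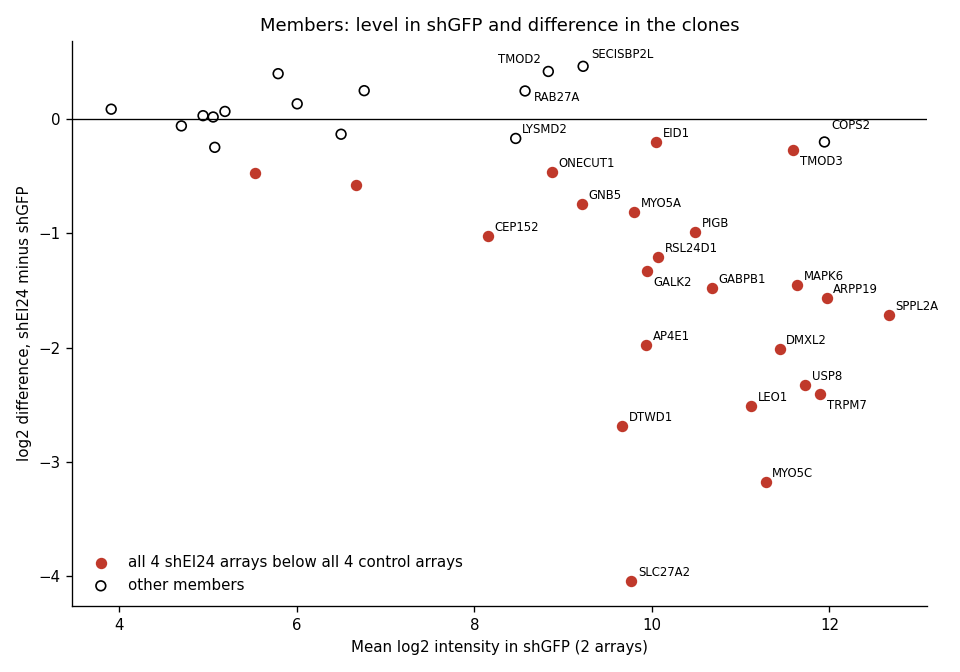
Mean log2 intensity of each member in the 2 shGFP arrays (horizontal) against the log2 difference of the shEI24 clones from shGFP (vertical); filled points are the 23 members whose 4 shEI24 arrays all lay below all 4 control arrays. Members with low intensity lie near 0, while those above about 8 range from 0.46 (SECISBP2L) to -4.04 (SLC27A2).

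To place the start and the end of the joint fall, a gene above the dimmest 25% was counted as taking part when its 4 shEI24 arrays lay below its 4 control arrays and each clone lay at least 0.5 below shGFP on the log2 scale. Of 27 such members 18 took part. The members were picked on this fall, and the share of all genes that meet the whole rule was not computed. The counts and runs, in the block and beside it, are therefore a description. The first part of the rule alone, shEI24 arrays below control arrays, was met by 26.9% of all genes. Above the median level it was met by 41.3%. A run was followed outward from the middle of the list until 2 genes in a row did not take part. It went from GALK2 to DMXL2 and held 10 genes taking part among 11, with TNFAIP8L3 as the exception and FAM227B inside it. FAM227B, whose function is little known, read 8.18 and 8.30 in the shGFP arrays, 7.72 and 7.36 in the parental arrays, 5.78 and 5.69 in clone 1 and 5.58 and 5.46 in clone 2, a difference of -2.61 (SE 0.11) that is a lower bound in size, since the clones lay in the dimmest 25% of genes. LYSMD2, TMOD2 and TMOD3 then broke the run. Beyond them LEO1, MAPK6, GNB5, MYO5C, MYO5A, ARPP19, RSL24D1 and PIGB took part, with ONECUT1 and RAB27A between them not doing so. They belong to a second run by the same rule, from LEO1 to ZNF280D, which was longer, with 13 genes taking part among 17, and crossed the end of the block, since 5 of the 13 lie beyond PIGB. Another run with a member, from MYEF2 to CEP152, held 3 of 4 genes and crossed the start. EID1, SECISBP2L and COPS2, between CEP152 and GALK2, did not take part. The run from GALK2 to DMXL2 was the same at thresholds of 0.3 and 1, and held 8 of 8 genes with a level above the 50th percentile. The run from LEO1 ended at ZNF280D at 0.3 too, but at RSL24D1, inside the block, at 1 (5 of 8 genes). At 1, and when a single gene could end a run, no run with a member crossed either end of the block. When a single gene could end a run, GALK2 to AP4E1 (9 of 9) and LEO1 to ARPP19 (6 of 6) each stood unbroken, and the run next to the middle of the list was DMXL2 alone, because TNFAIP8L3 lies there. With dim genes kept, GALK2 to AP4E1 held 9 of 13, and the run next to the middle was GLDN and DMXL2, because CYP19A1 and TNFAIP8L3 lie there. The second run then split into LEO1 to ARPP19 (6 of 7) and RSL24D1 to ZNF280D (7 of 10), the latter across the end of the block.

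The nearest genes outside the block did not share one direction. Before it lay DUT, which removes uracil from the nucleotide pool, with 9.13 and 9.001 in the shGFP arrays, 9.10 and 9.08 in the parental arrays, 8.34 and 8.33 in clone 1 and 7.78 and 7.80 in clone 2, a difference of -1.004 (SE 0.07), called lower. FBN1, the microfibril protein fibrillin next to CEP152, read 5.99 and 5.67 in the shGFP arrays, 5.74 and 5.70 in the parental arrays, 8.65 and 8.41 in clone 1 and 8.60 and 8.29 in clone 2, a difference of 2.66 (SE 0.13), called higher, and a lower bound because its shGFP level lay in the dimmest 25% of genes. SLC12A1, a kidney salt transporter, was not called and read 4.93 to 5.48 over the 8 arrays. After the block, PYGO1, a cofactor of Wnt signalling, read 7.30 and 7.17 in the shGFP arrays, 7.81 and 7.68 in the parental arrays, 8.60 and 8.49 in clone 1 and 8.46 and 8.37 in clone 2, a difference of 1.25 (SE 0.08), and NEDD4, a ubiquitin ligase, read 9.42 and 9.33 in the shGFP arrays, 9.44 and 9.24 in the parental arrays, 10.90 and 10.71 in clone 1 and 10.43 and 10.30 in clone 2, a difference of 1.21 (SE 0.10), both called higher. PRTG, a protein of the immunoglobulin family between them, read 8.46 and 8.38 in the shGFP arrays, 8.38 and 8.22 in the parental arrays, 7.77 and 7.39 in clone 1 and 7.77 and 7.65 in clone 2, a difference of -0.77 (SE 0.12), called lower. In these 5 called genes the clones and the controls did not overlap. Among the 20 measured genes before the block 3 were lower, 6 higher and 11 not called (median 0.19), and among the 20 after it 6, 6 and 8 (median 0.14). Over all 18417 genes 29% were lower and 26.8% higher, and these counts are a description only. Above the dimmest 25% of genes lay 9 of the 20 before the block and 15 of the 20 after it. By the rule for taking part, 2 of 9 genes before the block did (MYEF2 and DUT) and 6 of 15 after it (PRTG, RFX7, TEX9, MNS1, ZNF280D and CCNB2).

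Lower values were not particular to the block on this chromosome. Of the 259 other genes of chromosome 15 above the median level 61% were called lower in the clones, 25.1% at least 2-fold lower and 20.5% higher, with a median of -0.45. The 77 such genes before the block had a median of -0.05, with 41.6% lower, and the 182 after it had a median of -0.66, with 69.2% lower. In running windows of 24 such genes the lowest of 260 medians was -1.32, reached by 3 overlapping windows, from BLOC1S6 to ARPP19 with 20 of the members, from SQOR to ONECUT1 with 21 and from MYEF2 to RSL24D1 with 22, and the highest was 0.10.

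Both clones showed the same pattern. In clone 1, 22 members were lower and 3 higher than shGFP (26.6% of all genes lower), with a median of -0.49, and in clone 2, 23 were lower and 3 higher (27.8% of all genes lower), with a median of -0.60. The differences of the clones from shGFP correlated across the 38 members with a Spearman rho of 0.98, as a description only, since both use the same shGFP arrays. The members were picked for a fall in the clones together, so the comparison between the clones is not independent of that choice. This comparison uses the control arrays only in the shared estimate of the spread. It called 2 of 38 members at an adjusted p under 0.05 from limma, both higher in clone 1, against 15.2% of all genes in either direction and 9.29% in this one. The count was 0 to 9 under the alternative analyses, so nothing is read from its smaller share. It was 9 with the replicate number as a block in the model, where 22.7% of all genes were called. MYO5A was higher in clone 1 by 0.58 (SE 0.09, adjusted p = 0.00313 from limma), and GNB5 by 0.33 (SE 0.08, adjusted p = 0.0304 from limma). The MYO5A call was lost with the methods' t-test but kept without any single array (adjusted p = 0.00739 to 0.021 from limma), whereas the GNB5 call was lost when any single array was left out, including those of shGFP and parental cells, with adjusted p-values of 0.050 to 0.147 from limma. The second largest gap was that of MAPK6, with 0.42 and an adjusted p of 0.0603 from limma. With the replicate block MAPK6 was called, at an adjusted p of 0.0231 from limma. In sign, clone 1 lay above clone 2 in 25 of 38 members, against 8426 of all 18417 genes. Above the median level it did so in 17 of 24 members and in 163 of the 259 other genes of chromosome 15. Nothing is read from the signs.

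Between shGFP and parental cells limma called 2 of 38 members, both higher in shGFP, against 10.7% of all genes in either direction and 3.21% in this one. Here the alternatives gave 0 to 7, and again nothing is read from the share. The count was 7 with the replicate number as a block, where 18.7% of all genes were called. RSL24D1 was higher by 0.56 (SE 0.10, adjusted p = 0.0109 from limma) and GALK2 by 0.46 (SE 0.10, adjusted p = 0.0221 from limma). DTWD1, which was not called, had the largest difference, 0.69, with an adjusted p of 0.084 from limma (0.0178 with the replicate block). These calls share the shGFP arrays with the difference from the clones. Without shGFP replicate 1 or 2 or parental replicate 1 or 2, limma called 0 of the members. Against parental cells in place of shGFP, RSL24D1 was at -0.64 and GALK2 at -0.87, and the median of all members was -0.53, as against shGFP. The signs between shGFP and parental cells were mixed, with 22 members above and 16 below, against 8079 above and 10338 below over all genes.

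The start regions shown above can be read beside these values. The DNA between COPS2 and GALK2 lies at the start of 1 gene at -0.20 and of another at -1.33, and that between RAB27A and PIGB at the start of genes at 0.25 and -0.98. The members of the other pairs lay nearer to each other, with FAM227B at -2.61 and DTWD1 at -2.69, and LYSMD2 at -0.17 and TMOD2 at 0.42. The 2 genes beside 1 start region thus had unequal differences in COPS2/GALK2 and in RAB27A/PIGB. RAB27A has several annotated starts, and which of them its values come from was not tested. The promoter windows searched were the 250 bases before the start. For the 18 members that took part, the ETS letters were found in 16.7%. The share was 11.8% for the 17 other members and 12.1% for 14239 measured genes. In the same order, the Sp letters were found in 50%, 41.2% and 57.3%, the NF-Y letters in 22.2%, 47.1% and 34.5% and the E-box letters in 27.8%, 35.3% and 16.8%. The TBP letters were in 0 of the windows of the members and in 8.7% of those of all measured genes. The median GC content was 63%, 54% and 62.8%, and the median ratio of observed to expected CpG was 0.92, 0.61 and 0.75. Promoters of the members that took part were close to those of all measured genes in GC content, while the other members include genes of the dimmest 25%. A match of these letters is a description and shows no bound factor.

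Many members work in complexes or routes whose other genes lie elsewhere in the genome. For 14 such lists, with 84 genes in all, 83 genes were measured. Against shGFP 44 of them were lower, 15 higher and 24 not called at an adjusted p under 0.05 from limma, with a median of -0.36. Of the 60 above the median level 34 were lower, against 44% of all genes at that level, with a median of -0.44 against -0.13.

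No list was set against other lists by a test. The background for each count is 29% lower and 26.8% higher over all genes. For genes above the median level, as 60 of the 83 partners were, it is 44% lower and 29.7% higher. Among the partners in vesicle traffic, 6 of 10 genes of RAB27 and myosin V transport were lower and 2 higher, with the RAB27 effector SYTL2 at -3.43 (SE 0.09) and UNC13D, which primes secretory granules, at 2.84 (SE 0.08). Of 4 AP-4 genes 3 were lower, among them AP4M1 at -1.12 (SE 0.09) and AP4S1 at -0.91 (SE 0.13). Of 5 genes of the ESCRT-0 sorting complex and its ubiquitin enzymes, the partners of USP8, 3 were higher and 1 lower, with STAM at 0.86 (SE 0.07) and HGS at 0.84 (SE 0.08). The 3 partners of DMXL2 in proton pump assembly were all lower, DMXL1 at -1.04 (SE 0.11) and ROGDI at -0.82 (SE 0.10). Of 4 intramembrane proteases related to SPPL2A 1 was higher, HM13 at 0.50 (SE 0.07), and 1 was lower, SPPL2B at -0.42 (SE 0.09).

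Among the partners in nuclear complexes, cell division and signalling, 4 of 9 COP9 signalosome genes were lower and 1 higher, with COPS6 at -0.97 (SE 0.07) and the catalytic subunit COPS5 at -0.67 (SE 0.12). Of 5 PAF1 complex genes only SKIC8, on chromosome 15 as well, was lower, at -2.25 (SE 0.12). RTF1, also on chromosome 15, was not called, at -0.056. CTR9 was higher at 0.28 (SE 0.09) and PAF1 at 0.22 (SE 0.07). Against parental cells CTR9 was at -0.087 and PAF1 at -0.46. Both partners of GABPB1 were lower, GABPB2 at -2.25 (SE 0.09) and GABPA, the DNA-binding subunit, at -0.72 (SE 0.15). The 3 of ARPP19 on the Greatwall route were lower, with ENSA, its closest relative, at -1.84 (SE 0.07) and the phosphatase subunit PPP2R2D at -1.08 (SE 0.12). Of 6 centriole duplication genes 4 were lower and none was higher, with the kinase PLK4 at -1.13 (SE 0.10) and CPAP at -0.93 (SE 0.10). The ERK3 list held MAPKAPK5, lower at -0.30 (SE 0.08), and MAPK4, which was not called, at -0.01 (SE 0.13). Of 5 R7 RGS genes RGS9 was higher at 1.81 (SE 0.12) and RGS6 lower at -1.65 (SE 0.10), and 1 more was higher.

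Among the partners in metabolism, 12 of 20 genes of GPI anchor synthesis were lower and 2 higher, and the mannosyltransferase PIGM at -2.39 (SE 0.12) and its stabilizing partner PIGX at -1.81 (SE 0.11) had the largest differences. Of the 5 other fatty acid transport proteins 2 were lower and 2 higher, with SLC27A3 at -1.65 (SE 0.10) and SLC27A4 at 0.52 (SE 0.07), the latter at -0.071 against parental cells. The values of AP4S1, SYTL2, RGS6 and RGS9 are lower bounds in size, since their dimmer group lay in the dimmest 25% of genes. The calls of AP4S1, GABPA, PLK4 and RGS9 were lost with the methods' t-test, and that of MAPKAPK5 without either shGFP replicate.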

How the data were processed

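The deposited table gives a log2 intensity for each transcript cluster on each array, and every column of it belongs to a sample. GCOS and RMA are the tools in the submitters' processing notes, without versions. RMA removes background, puts the arrays on a common distribution and merges the probes of a cluster, so a change of total RNA is not seen and differences near the floor are compressed. Array medians were 7.28 to 7.39, and precision is limited by the few arrays. The study's methods name an exon array, but the annotation that holds the identifiers of the 33297 clusters is that of the related Human Gene 1.0 ST array. It names 21214 of them, 19460 with 1 symbol and 1754 with several, and the rest are unnamed here. Clusters with 1 symbol were used, the one with the highest mean per gene, which left 18417 genes. RefSeq (GRCh38.p14) placed 18392 of them, 576 on chromosome 15, and gave gene order and promoters.

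Differences were computed by limma 3.58.1 under R 4.3.3, using lmFit and eBayes with 1 mean for each of 4 lines and 4 residual degrees of freedom, with Benjamini-Hochberg adjustment over all genes and a threshold of 0.05. The procedure was tested on simulated data. In the shEI24 labels the number before the hyphen was read as the clone, the one after it as the replicate. The members, the lists of partner and marker genes and the tests were chosen with earlier results of these data known. Every array's value is given for the 12 members with the largest difference from shGFP and for the first and last 3 members. It is also given for the members higher in the clones and those called between other lines. The same holds for the 3 nearest genes on each side, except SLC12A1, whose range is given. A few more members with every array's value were chosen after their values were seen. From each partner list up to 2 genes with the largest difference are named, and for the PAF1 complex PAF1 and RTF1 as well. Alternatives were another control (parental, or pooled with shGFP), only the shEI24 and shGFP arrays, a second quantile normalization, median centring, leaving out the dimmest 25% of genes, the mean of all clusters, eBayes with trend and robust, the replicate number as a block, the methods' t-test adjusted over all genes, leaving out each array, and other rules for the run of genes.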

Additional observations from a re-analysis of the deposited data

Results flagged for a closer look

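In 2 members the clones differed from each other in their difference from shGFP, by a test of that difference in limma. MYO5A was 0.58 (log2) higher in clone 1 than in clone 2 (adjusted p = 0.00313), and GNB5 was 0.33 higher (adjusted p = 0.0304), with both arrays of clone 1 above both arrays of clone 2 in each gene. The call of GNB5 was lost when any single array was left out (adjusted p = 0.050 to 0.147 from limma), while that of MYO5A was kept. With the methods' t-test both were lost (adjusted p = 0.196 for MYO5A and 0.205 for GNB5), and of the 38 members 0 were called and 4 had an unadjusted p under 0.05.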

How the results depend on the processing

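Under all alternatives the 12 members with the largest differences stayed called and lower, and 25 of the 38 members kept their direction and their side of the threshold. The others, of which none is among those 12, were COPS2, EID1, HDC, LYSMD2, MYO5A, ONECUT1, RAB27A, SECISBP2L, SHC4, TMOD2, TMOD3, TNFAIP8L3 and USP50. The count of members lower was 20 to 25 under the alternatives. With parental cells as the control, 2 called members changed sign, TMOD2 (-0.071) and RAB27A (-0.026), as did 5 called partner genes, CTR9 (-0.087), SLC27A4 (-0.071), PAF1 (-0.46), COPS7A (-0.048) and PIGV (0.00064), and among uncalled genes 3 members and 6 partners. The median of the members was -1.20 without the dimmest 25% of genes, which leaves out 11 of them, and -0.57 to -0.49 when 1 array was left out. The run outward from the middle of the list fell from 10 genes to 2 with no level filter and to 1 when 1 gene ended it, since genes at the middle do not take part, while GALK2 to AP4E1 stayed together. The longest run holding a member, chosen after seeing the data, had 13. Members called between the clones numbered 2, but 1 with only the shEI24 and shGFP arrays, 1 with median centring, 5 with a second quantile normalization, 5 without the dimmest 25%, 9 with trend and robust, 0 with the methods' t-test (4 at an unadjusted p under 0.05) and 1 to 4 when 1 array was left out. Members called between shGFP and parental cells numbered 2, but 4, 5, 6 and 0 with second quantile normalization, without the dimmest 25%, with trend and robust and with the methods' t-test (15 unadjusted), and 0 to 4 when 1 array was left out. Partner genes called higher numbered 9 with the methods' t-test, against 15, and 11 to 15 when 1 array was left out. The cause of the other changes was not tested. Nothing in the sources says that equal replicate numbers pair arrays across lines, though the deviations of same-numbered arrays correlated at 0.25 to 0.59. With the replicate number as a block, 9 members were called between the clones (22.7% of all genes) and 7 between shGFP and parental cells (18.7% of all genes), and over all genes 6307 were higher and 5743 lower than shGFP, against 4941 and 5348 without it.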

Other observations

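Chromosome 15 had the highest share of lower genes among the 23 chromosomes with values. Of its 283 genes above the median level, members of the 15q21 block included, 62.5% were called lower in the shEI24 clones than in shGFP by limma, with a median of -0.51. Chromosome 16 followed with 57.1% of 450 genes and chromosome 7 with 56.3% of 426 genes. Chromosome 19 had the lowest share, with 30.8% of 665 genes.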
